A study of Mus musculus with 5 samples.

Results

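The ERK feedback genes are a set of 10 mouse genes whose proteins restrain the kinase ERK or the receptors and RAS proteins above it. They were listed by symbol, with earlier results of these data known, and no measured value enters the rule: the dual-specificity phosphatase genes Dusp1, Dusp4, Dusp5 and Dusp6, the Sprouty genes Spry1, Spry2 and Spry4, and the Sprouty-related genes Spred1, Spred2 and Spred3. All 10 were found among the 55335 gene IDs of the deposited table, and all 10 passed the low-count filter that left 16380 genes for testing. The samples were primary lung fibroblasts, taken from mice and grown in culture, kept for 24 h with vehicle (2 libraries) or with 5 ng/mL TGF-β1 (3 libraries). The sources used here give no strain, age or sex for the mice, and they do not say whether the replicates came from separate animals, so a p-value reflects only how these 5 libraries vary.

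In the ERK pathway, a growth factor receptor switches on RAS, RAS activates RAF kinases, and RAF acts through MEK to phosphorylate ERK. ERK in turn raises transcription of several of its own inhibitors, so their transcripts are widely read as an output of the pathway as well as a brake on it. TGF-β1, best known for SMAD signalling, can also engage ERK, JNK and p38 kinases in fibroblasts.

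Libraries held 34283288 to 43163967 counts, and the members had 306 to 6770 counts in a library. Their counting error, the standard deviation expected from the square root of the count, was at most 5.72%. Levels are CPM, library-size-scaled counts, after TMM normalization. The groups were separate over all genes, with correlations of log2 CPM of 0.987 to 0.989 within and 0.958 to 0.960 between groups. The fibroblast markers Col1a1, Col1a2, Col3a1 and Vim were abundant, and the 8 fibroblast markers summed to 25936 to 26943 CPM in the controls and 33000 to 33276 CPM with TGF-β1. Col1a1, Col1a2 and Vim were higher with TGF-β1 and the other 5, Col3a1, Pdgfra, Dcn, Thy1 and Lum, were lower, with Lum under 1 CPM throughout; the median log2 fold change of the 8 was −0.71. Transcripts of markers of other cell types were also found, which alone does not show that such cells were present. The 8 mesothelial markers summed to 1401 to 1486 CPM in the controls and 201 to 219 CPM with TGF-β1 (7 lower, 0 higher). The 7 leukocyte markers, Lyz2 most of all, summed to 2272 to 2341 and 1377 to 1411 CPM (4 lower, 1 higher of 5 tested). The 6 pericyte and smooth muscle markers summed to 1793 to 1853 and 1337 to 1373 CPM (4 lower, 1 higher). Des made up most of that sum, with means of 1303 and 983 CPM. Cspg4 was the higher one, with means of 4.31 and 48.0 CPM. The endothelial and epithelial lists each summed to under 5 CPM in every library, and Sftpc, Sftpb, Scgb1a1 and Cd3e had 0 counts in all 5. These sums moved with the groups, and their part in the results below was not tested; fewer cells of a type and less RNA per cell cannot be told apart in bulk samples.

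In many of these genes replicate 3 of the TGF-β1 group differed from its partners, so results for the members are given with and without it. P-values without it do not count the spread that it adds, since these same values singled out replicate 3. It had 39769301 counts, within the range of the other libraries, and its marker sums were close to those of replicates 1 and 2 (mesothelial 219 against 201 and 208 CPM, leukocyte 1411 against 1377 and 1383 CPM).

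The feedback genes moved in both directions, and every family held log2 fold changes of both signs. With TGF-β1, Dusp4, Dusp5 and Spry1 rose, Spry2, Spry4, Spred1 and Spred3 fell, and Dusp1, Dusp6 and Spred2 did not pass the test. The test was edgeR's quasi-likelihood test, with adjusted p under 0.05 over all 16380 genes. Of all genes tested, 44.5% were called (21.3% higher and 23.2% lower), against 7 of 10 members. The median log2 fold change of the members was −0.05 and that of all genes 0.00. Without TGF-β1 replicate 3, 4 members were higher and 5 lower, against 46.4% of genes called. Without control 1, 1 member was higher and 3 were lower, against 31.9% of genes called, and without control 2, 1 was higher and 4 were lower, against 32.3%. Against a null of 1.5-fold, Spry4 alone passed, where 10.9% of genes did.

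**Figure D1:**
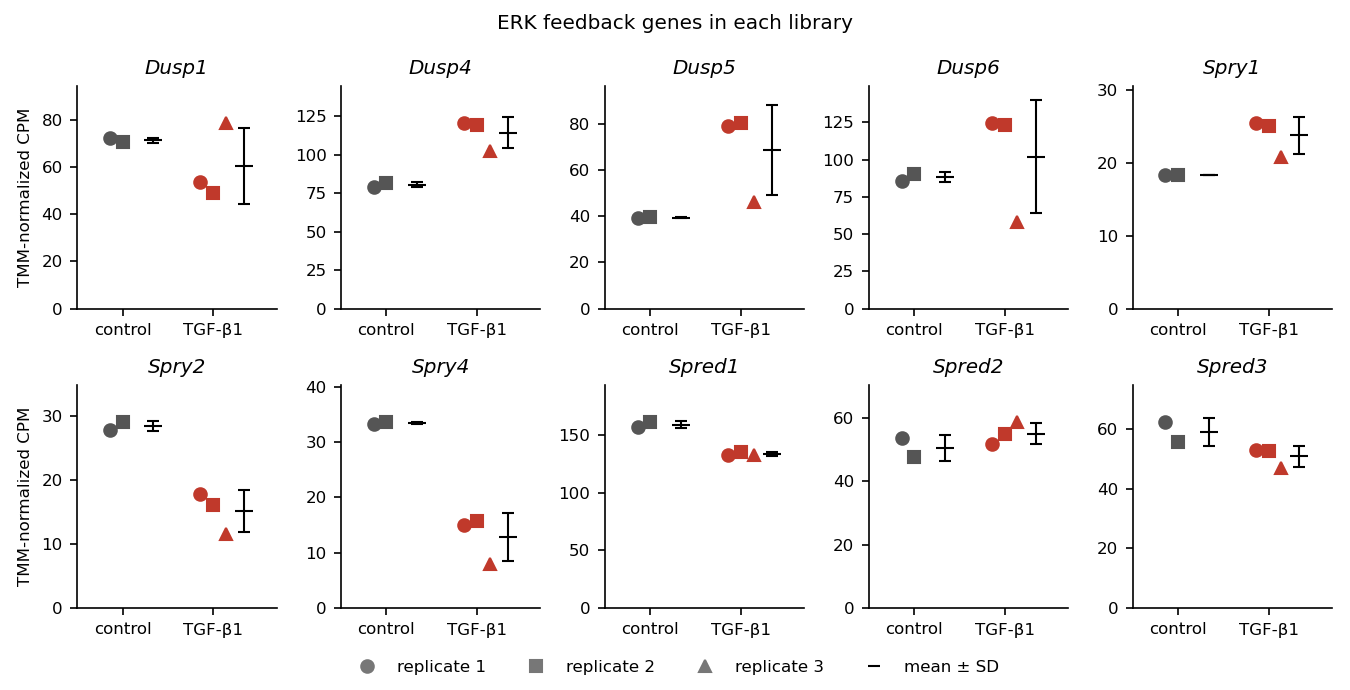
TMM-normalized CPM (vertical axes, from 0) of the 10 genes in the 2 control and 3 TGF-β1 libraries, with marker shape for the replicate number and a dash with bars for mean ± SD. The 2 controls lie close together in most panels, least so for Spred2 and Spred3. TGF-β1 replicate 3 lies well below replicates 1 and 2 for Dusp5, Dusp6, Spry2 and Spry4 and well above them for Dusp1. It differs from them by less in the other genes.

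The DUSP genes encode phosphatases that remove phosphate from both the threonine and the tyrosine that activate a MAP kinase. Dusp5, a nuclear phosphatase selective for ERK (ENSMUSG00000034765, chromosome 19, 53529109 to 53542431, plus strand, GRCm38), had 39.2 and 39.5 CPM in the controls and 79.1, 80.2 and 46.3 CPM in TGF-β1 replicates 1 to 3. All 3 treated libraries were above both controls, and replicate 3 was much nearer to them than the others. The means were 39.3 ± 0.224 (SD, n = 2) and 68.5 ± 19.3 CPM (SD, n = 3), which is 1.74-fold (log2 fold change 0.80, SE 0.20, adjusted p = 0.00945). Without replicate 3 the log2 fold change was 1.02 (adjusted p = 1.46e-08), and with either control left out the call was lost (adjusted p = 0.0807 and 0.0754).

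Dusp4, a nuclear phosphatase of ERK and JNK (ENSMUSG00000031530, chromosome 8, 34807297 to 34819894, plus strand), had 79.3 and 81.7 CPM in the controls and 121, 119.6 and 103 CPM with TGF-β1. Every treated library was above both controls. The mean went from 80.5 ± 1.69 to 114 ± 10.1 CPM, a log2 fold change of 0.51 (SE 0.069, adjusted p = 0.000307), and 0.58 without replicate 3. Of the 14 alternatives, 13 kept the call.

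Dusp6, the cytoplasmic ERK phosphatase often measured as a readout of ERK activity (ENSMUSG00000019960, chromosome 10, 99263231 to 99267489, plus strand), had 85.9 and 90.7 CPM in the controls and 125, 123 and 58.2 CPM with TGF-β1. Replicates 1 and 2 were above both controls and replicate 3 was below both, so the groups overlapped. The log2 fold change was 0.21 (SE 0.26, 95% interval −0.38 to 0.80, adjusted p = 0.553). Without replicate 3 it was 0.49 and passed (adjusted p = 2.34e-06). With replicate 1 or replicate 2 left out instead, it was 0.047 (adjusted p = 0.907) and 0.055 (adjusted p = 0.898).

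Dusp1, a nuclear phosphatase that acts on p38 and JNK as well as ERK and is induced early by stress and growth factors (ENSMUSG00000024190, chromosome 17, 26505590 to 26562128, minus strand), had 72.0 and 70.4 CPM in the controls and 53.5, 48.9 and 78.5 CPM with TGF-β1. Here replicate 3 was above both controls and the others were below them, the reverse of Dusp6. The log2 fold change was −0.24 (SE 0.16, 95% interval −0.61 to 0.13, adjusted p = 0.268), and −0.48 without replicate 3 (adjusted p = 2.6e-05). With replicate 1 or replicate 2 left out instead, Dusp1 had −0.157 (adjusted p = 0.511) and −0.105 (adjusted p = 0.619). Its value is uncertain, since its exons share 11 bases with Ergic1 on the opposite strand, a gene at 222 CPM.

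Promoter windows of 300 bases, from 250 before to 50 after the RefSeq start site in GRCm38.p6, were at hand for 8 of the 10 members; Dusp4 and Spry4 did not match. Those of Dusp5 and Dusp1 are shown because they held motif matches and these genes differed in opposite directions in TGF-β1 replicate 3. The window of Dusp6, the member with the largest difference in that library, held 0 matches to the 7 motifs searched. Each is written 5′ to 3′ on the strand of its gene, with capitals for motif matches other than the GC box.
Dusp5 chr19:53528895-53529194, plus strand: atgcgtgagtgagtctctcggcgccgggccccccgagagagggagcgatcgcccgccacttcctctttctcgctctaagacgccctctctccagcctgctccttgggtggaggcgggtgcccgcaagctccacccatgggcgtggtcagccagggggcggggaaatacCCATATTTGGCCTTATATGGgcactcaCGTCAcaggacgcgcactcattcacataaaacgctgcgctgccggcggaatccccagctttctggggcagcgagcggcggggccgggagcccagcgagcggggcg
Dusp1 chr17:26508423-26508722, minus strand: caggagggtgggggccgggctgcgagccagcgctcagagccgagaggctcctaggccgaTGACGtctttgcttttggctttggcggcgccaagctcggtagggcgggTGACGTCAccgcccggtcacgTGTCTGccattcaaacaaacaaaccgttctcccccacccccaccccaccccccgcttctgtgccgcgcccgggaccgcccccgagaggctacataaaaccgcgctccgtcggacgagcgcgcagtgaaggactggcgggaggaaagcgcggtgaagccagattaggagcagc
The capitals in Dusp5 begin with adjoining matches to the CArG box, the motif of serum response factor, 82 and 72 bases before the start, followed by a match to TGACG on the other strand. A CArG box stood in 1 of the 8 member windows and in 1.63% of 32851 windows of all genes. Dusp1 held the full cAMP response element TGACGTCA 143 bases before its start, as 1 of 8 member windows and 1.79% of all windows did, and CAGACA, a SMAD-type motif, on the other strand. The full element also counts as a pair of overlapping matches to TGACG, of which Dusp1 had another 191 bases before the start. TGACG stood in 3 of 8 member windows and 20.8% of all. These are matches of letters on either strand and not measured binding sites.

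The Sprouty genes encode membrane-associated inhibitors of receptor tyrosine kinase signalling to RAS and ERK, and they did not move together. Spry4 (ENSMUSG00000024427, chromosome 18, 38586247 to 38601415, minus strand) had 33.3 and 33.6 CPM in the controls and 15.0, 15.7 and 7.91 CPM with TGF-β1. Every treated library was below both controls and replicate 3 was the lowest. It had the largest change of the 10 members, with means of 33.5 ± 0.202 and 12.9 ± 4.30 CPM, 2.60-fold lower (adjusted p = 0.000776; log2 fold change −1.38, SE 0.22), and it kept its call under all 14 alternatives. Without replicate 3 the log2 fold change was −1.12 (adjusted p = 2.41e-07).

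Spry2, which binds the ubiquitin ligase CBL and the adaptor GRB2 (ENSMUSG00000022114, chromosome 14, 105891947 to 105896819, minus strand), had 27.9 and 29.0 CPM in the controls and 17.8, 16.2 and 11.5 CPM with TGF-β1. The treated libraries were all lower, again with replicate 3 the lowest. The decrease was 1.87-fold (log2 fold change −0.91, SE 0.15, adjusted p = 0.000953), and −0.74 without replicate 3 (adjusted p = 1.84e-05).

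Spry1 (ENSMUSG00000037211, chromosome 3, 37639947 to 37644598, plus strand) moved the other way, with 18.4 and 18.3 CPM in the controls and 25.5, 25.1 and 20.9 CPM with TGF-β1. All 3 treated libraries were above both controls. The log2 fold change was 0.38 (SE 0.096, adjusted p = 0.0106), and 0.46 without replicate 3 (adjusted p = 0.000436). With either control left out it no longer passed (adjusted p = 0.0685 and 0.0713).

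The promoter windows of Spry1 and Spry2 are shown because these paralogs changed in opposite directions.
Spry1 chr3:37639697-37639996, plus strand: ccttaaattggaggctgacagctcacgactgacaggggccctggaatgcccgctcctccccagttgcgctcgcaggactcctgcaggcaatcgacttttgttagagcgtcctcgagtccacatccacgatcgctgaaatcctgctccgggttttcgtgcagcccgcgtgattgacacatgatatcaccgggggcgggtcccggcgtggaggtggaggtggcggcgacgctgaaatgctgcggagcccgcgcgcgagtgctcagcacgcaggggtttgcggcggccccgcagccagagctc
Spry2 chr14:105896770-105897069, minus strand: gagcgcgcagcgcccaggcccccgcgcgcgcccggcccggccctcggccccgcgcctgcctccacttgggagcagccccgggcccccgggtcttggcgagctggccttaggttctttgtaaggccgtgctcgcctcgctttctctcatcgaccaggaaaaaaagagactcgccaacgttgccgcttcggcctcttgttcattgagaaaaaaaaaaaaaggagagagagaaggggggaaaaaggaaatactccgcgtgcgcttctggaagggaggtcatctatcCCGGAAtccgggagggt
Of the 7 motifs searched, Spry2 held only CCGGAA, the core of an ETS site, 34 bases after the start, which stood in 1 of 8 member windows and 14.9% of all windows. Spry1 held only the GC box GGGCGG, 60 bases before the start. A GC box, alone or with other motifs, stood in 6 of 8 member windows and 35.7% of all windows. TGANTCA, the AP-1 motif, was in 0 of 8 member windows and 7.81% of all, and CAGACA in 1 of 8 and 21%.

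The Spred genes encode relatives of Sprouty that bring the RAS inactivator neurofibromin to the membrane, and their differences were small. Spred1 (ENSMUSG00000027351, chromosome 2, 117121374 to 117182279, plus strand) had 157 and 161 CPM in the controls and 133, 136 and 132 CPM with TGF-β1. Every treated library was lower, and replicate 3 was level with the others. The decrease was 1.19-fold (log2 fold change −0.25, SE 0.035, adjusted p = 0.000361). Without replicate 3 the log2 fold change was −0.24.

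Spred3 (ENSMUSG00000037239, chromosome 7, 29158829 to 29170411, minus strand) had 62.3 and 55.7 CPM in the controls and 52.9, 52.8 and 46.8 CPM with TGF-β1. The groups did not overlap, but the gap between them was smaller than that between the controls. The log2 fold change was −0.21 (SE 0.071, adjusted p = 0.0360), and −0.16 without replicate 3 (adjusted p = 0.049). The call was lost without control 1 (log2 fold change −0.13, adjusted p = 0.303) and when no filter on low counts was applied (adjusted p = 0.0801).

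Spred2 (ENSMUSG00000045671, chromosome 11, 19924375 to 20024026, plus strand) had 53.6 and 47.8 CPM in the controls and 51.9, 54.8 and 58.7 CPM with TGF-β1. The groups overlapped, and the log2 fold change was 0.12 (95% interval −0.03 to 0.28, adjusted p = 0.188), and 0.08 without replicate 3 (adjusted p = 0.356). None of the 14 alternatives gave it a call. In all, 7 of 10 members had groups that did not overlap, against 64.6% of all genes tested.

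**Figure D2:**
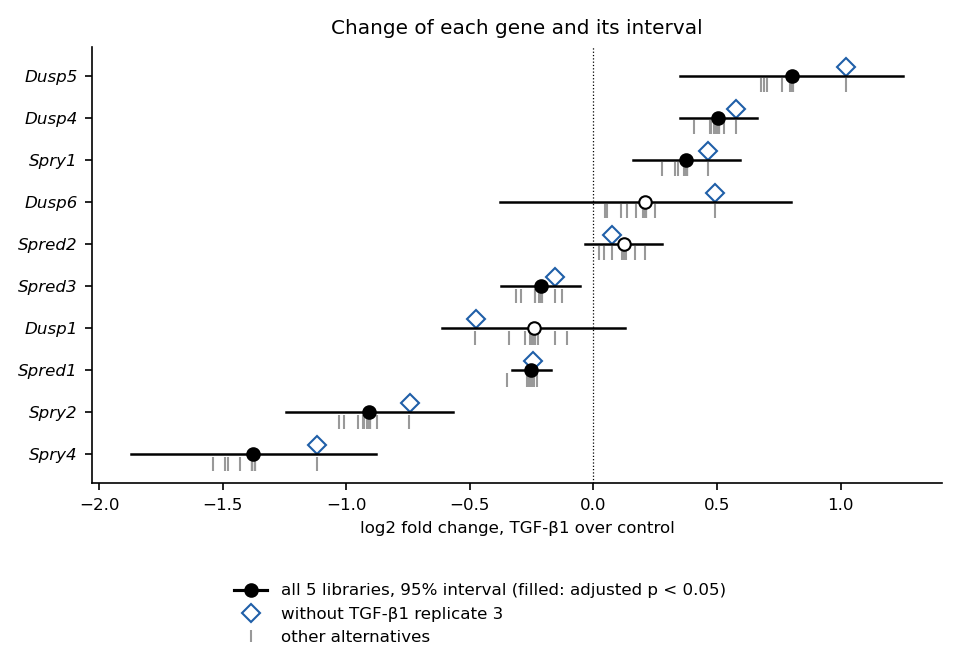
Log2 fold change of TGF-β1 over control (horizontal axis) for each gene: circles with 95% intervals from all 5 libraries, filled where adjusted p was under 0.05, diamonds without TGF-β1 replicate 3 and grey ticks for the other alternatives. No alternative turned the sign of any member, and leaving out replicate 3 moved Dusp6 from 0.21 to 0.49 and Dusp1 from −0.24 to −0.48.

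Scaled by exon length, the order of the members changed with TGF-β1. That length is the union of all annotated exons, not that of the transcripts expressed, so comparisons between genes depend on the annotation. In the controls the level in CPM per kilobase of exon was highest for Dusp4 (29.4) and Dusp6 (28.2), whose ranges overlapped. Spred1 (23.4), Dusp1 (21.5), Dusp5 (15.9), Spry2 (13.6), Spred2 (10.97), Spred3 (9.48), Spry4 (7.04) and Spry1 (6.32) followed, each with both controls above both of the next gene. With TGF-β1, Dusp4 (41.7 CPM per kilobase) was still first and Spry4 (2.71) was last in place of Spry1 (8.20). The ranges of Dusp4, Dusp6, Dusp5 and Spred1 each overlapped that of the next gene, down to Dusp1. Those of Spry1 and Spred3 did so too, down to Spry2. Dusp1, Spred2 and Spry2 were each above the next gene.

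The make-up of the Sprouty transcripts shifted towards Spry1. On the per-kilobase scale Spry1 made up 23.7% and 23.1% of the sum of Spry1, Spry2 and Spry4 in the controls, and 42.9%, 43.9% and 50.1% with TGF-β1. Spry2 held 50.03% and 50.96% in the controls and 41.7%, 39.4% and 38.3% with TGF-β1, and Spry4 went from 26.2% and 25.9% to 15.4%, 16.7% and 11.6%. The Sprouty sum was 26.7 and 27.3 CPM per kilobase in the controls and 20.5, 19.7 and 14.4 with TGF-β1. The groups did not overlap in any of these 4 measures, which all come from Spry1, Spry2 and Spry4 and depend on one another. Of all genes tested, 64.6% also had groups that did not overlap. The 4 measures were chosen after the values were seen and carry no test. An exact permutation of 2 against 3 libraries cannot give a p below 0.1.

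The sum of the 4 DUSP genes was 93.9 and 96.0 CPM per kilobase in the controls and 131.9, 130.3 and 98.4 with TGF-β1, so replicate 3 lay just above the controls. The Spred sum was 44.7 and 43.02 in the controls and 39.3, 40.3 and 39.7 with TGF-β1.

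**Figure D3:**
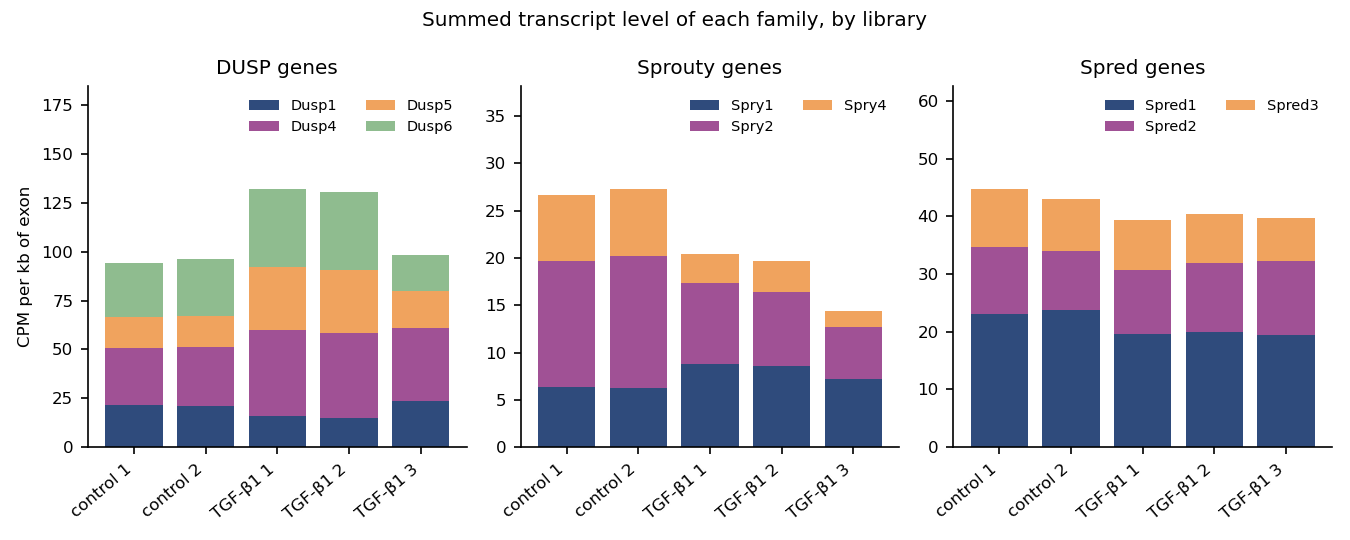
Stacked bars of CPM per kilobase of exon (vertical axes, from 0) for the DUSP, Sprouty and Spred genes in each of the 5 libraries. The Sprouty stack shrinks from 26.7 and 27.3 to 20.5, 19.7 and 14.4 while its Spry1 layer grows, and the DUSP stack of TGF-β1 replicate 3 (98.4) is near those of the controls.

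Within the TGF-β1 group, replicates 1 and 2 were close to each other in all 10 genes, and the difference lay with replicate 3. Compared with the mean of replicates 1 and 2, it was 2.13-fold lower in Dusp6, 1.94-fold in Spry4, 1.72-fold in Dusp5 and 1.48-fold in Spry2, and it was 1.53-fold higher in Dusp1. The mean of replicates 1 and 2 thus exceeded replicate 3 by over 25% in 4 of 10 members, and replicate 3 exceeded that mean by over 25% in 1. Of 9439 tested genes with a mean of at least 10 CPM, a level that all members exceeded, replicate 3 was lower by that margin in 1.95% and higher in 1.46%, and of all tested genes 10.3% and 10.1%. Dusp4, Spry1, Spred1, Spred2 and Spred3 differed by less.

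Some other genes that ERK signalling is known to induce stood apart in the same library, and are named here after their values were seen. Others in the same lists were level in TGF-β1 replicates 1 to 3. Etv4 had 44.0, 41.8 and 42.9 CPM there, Etv5 49.2, 48.5 and 47.4 CPM, and Fos 4.52, 4.09 and 4.19 CPM. Egr1, an immediate early transcription factor, had 71.7 and 63.2 CPM in the controls and 88.8, 92.4 and 28.3 CPM with TGF-β1. Ier2, another immediate early gene, had 21.7 and 18.9 CPM in the controls and 35.9, 35.3 and 15.1 CPM with TGF-β1. In both, as in Dusp6, replicates 1 and 2 were above the controls and replicate 3 was below.

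Phlda1 had 98.9 and 106 CPM in the controls and 102, 99.2 and 53.8 CPM with TGF-β1, and Myc had 30.4 and 30.6 CPM in the controls and 60.0, 61.2 and 35.9 CPM with TGF-β1. Nr4a1, an immediate early nuclear receptor, went the way of Dusp1, with 5.90 and 5.90 CPM in the controls and 5.82, 5.00 and 34.7 CPM with TGF-β1. Fosb had 0.758 and 1.85 CPM in the controls and 2.31, 2.38 and 10.8 CPM with TGF-β1. In the list of other ERK output genes replicate 3 was lower by the same margin in 4 of 12 and higher in 1, and in the list of immediate early genes in 6 of 12 and 3. Of all tested genes it was lower by that margin in 10.3% and higher in 10.1%. Egr1 counts in both lists, and both hold genes under 10 CPM.

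**Figure D4:**
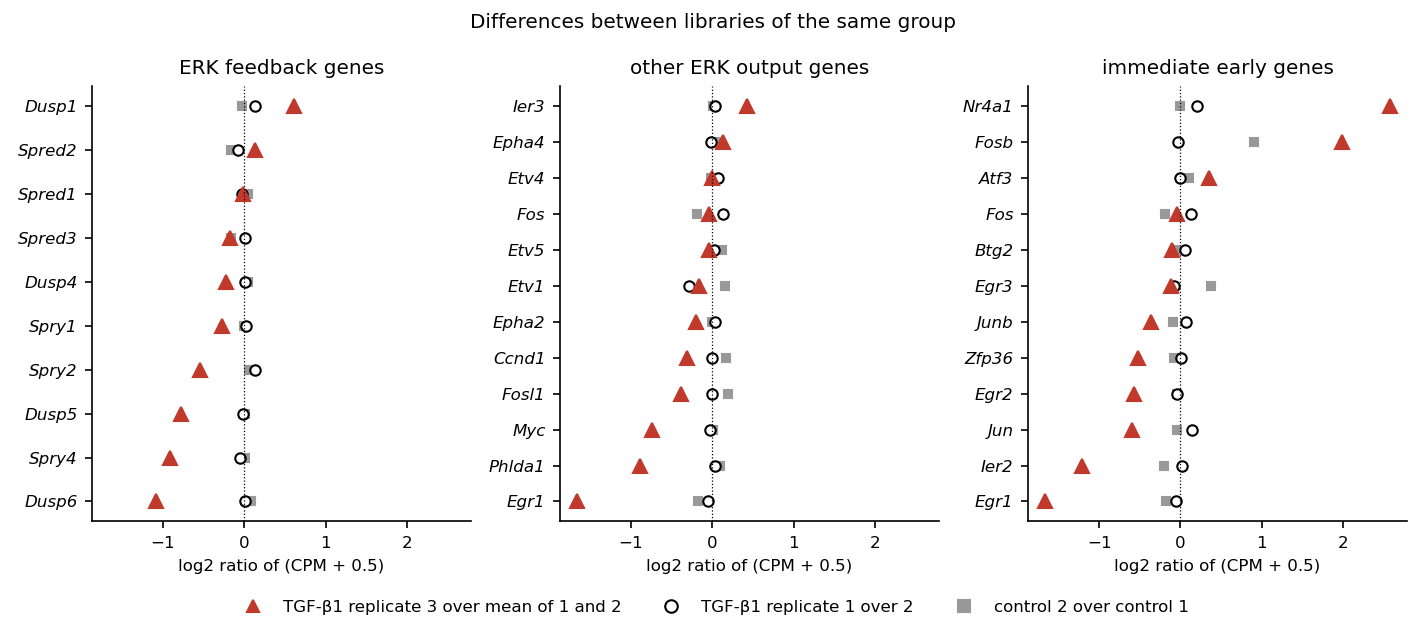
Log2 ratios of CPM + 0.5 between libraries of 1 group (horizontal axes): triangles for TGF-β1 replicate 3 over the mean of replicates 1 and 2, circles for replicate 1 over 2 and squares for control 2 over control 1. Among the feedback genes, circles lie near 0 while triangles reach −1.08 for Dusp6 and 0.61 for Dusp1. Among the other ERK output genes and immediate early genes, triangles reach −1.66 for Egr1 and 2.57 for Nr4a1.

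The rest of the pathway was followed through 7 lists. The counts of every list below stand beside 44.5% of all genes tested called, 21.3% higher and 23.2% lower. Without TGF-β1 replicate 3 the share called was 46.4%. No list was tested as a set. The 18 genes named from the lists with a test below all kept their call and direction without TGF-β1 replicate 3. Their log2 fold changes moved by at most 0.17, in Egr2. Without that library, the counts higher and lower were 4 and 0 for the other phosphatases, 7 and 1 for the receptor and RAS inhibitors, and 8 and 6 for the ERK cascade. They were 2 and 9 for the receptor tyrosine kinases, 5 and 5 for the other ERK output genes, and 1 and 3 for the JNK and p38 components. Among 6 other MAP kinase phosphatases, 3 rose, 0 fell and the other 3 missed the threshold, with a median log2 fold change of 0.29. Dusp16, a phosphatase of JNK and p38, went from 25.1 ± 0.0528 to 29.0 ± 0.822 CPM (log2 fold change 0.21, adjusted p = 0.0219). Its call was lost with library totals (adjusted p = 0.197), with the replicate block (0.0573) and without control 1 (0.0965), control 2 (0.0911) or TGF-β1 replicate 2 (0.0541). The other 2 higher genes, Dusp2 and Dusp9, had means under 3 CPM. Without either control, 0 of the 6 were higher.

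Among 13 tested inhibitors of receptors and RAS other than the members, 6 rose, 1 fell and the other 6 missed the threshold, with a median of 0.14. Lrig1, a transmembrane protein that limits ERBB receptors, rose from 37.2 ± 0.959 to 70.9 ± 4.51 CPM (log2 fold change 0.93, adjusted p = 2.83e-06), with a small exon overlap with Slc25a26 on the opposite strand that leaves it uncertain. Rasa2, a RAS GTPase-activating protein, rose from 30.9 ± 0.425 to 40.4 ± 0.712 CPM (log2 fold change 0.38, adjusted p = 0.000309). Socs3, an inhibitor of cytokine receptor signalling, fell from 34.3 ± 1.31 to 15.7 ± 1.43 CPM (log2 fold change −1.13, adjusted p = 5.18e-06). With library totals alone, 3 of these were higher and 2 lower.

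The 22 components of the ERK cascade were 7 higher, 6 lower and 9 not passing, with a median of 0.00. Map2k1, encoding MEK1, rose from 232 ± 7.39 to 338 ± 1.41 CPM (log2 fold change 0.54, adjusted p = 8.41e-07). The adaptor genes Shc1 and Gab1 fell, Shc1 from 351 ± 2.63 to 257 ± 5.74 CPM (log2 fold change −0.45, adjusted p = 2.58e-06) and Gab1 from 36.5 ± 0.770 to 22.7 ± 3.54 CPM (log2 fold change −0.68, adjusted p = 0.000912).

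Receptor tyrosine kinases had 2 higher, 9 lower and 5 not passing of 16, with a median of −0.23. Met, the receptor for hepatocyte growth factor, fell from 73.7 ± 2.37 to 16.8 ± 1.86 CPM (log2 fold change −2.13, adjusted p = 5.30e-08). Pdgfra fell from 177 ± 5.12 to 43.6 ± 1.38 CPM (log2 fold change −2.02, adjusted p = 1.69e-09). Fgfr2 fell from 66.3 ± 3.59 to 25.4 ± 0.405 CPM (log2 fold change −1.38, adjusted p = 7.07e-08), with exons shared with Ctbp2 that leave it uncertain. In all 3 the treated libraries were alike, replicate 3 included.

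Other ERK output genes had calls in both directions, with 4 higher, 5 lower and 3 not passing of 12 and a median of −0.12. Fosl1, whose protein is part of AP-1, rose from 4.84 ± 0.488 to 10.8 ± 1.66 CPM (log2 fold change 1.15, adjusted p = 0.000314), though Ccdc85b overlaps it on the opposite strand at a higher level and leaves it uncertain. Ccnd1, encoding cyclin D1, fell from 107 ± 8.50 to 48.2 ± 5.83 CPM (log2 fold change −1.15, adjusted p = 8.20e-06), uncertain for its overlap with LTO1. Fos, also of AP-1, fell from 9.0 ± 0.857 to 4.27 ± 0.226 CPM (log2 fold change −1.07, adjusted p = 0.000138).

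Of 12 immediate early genes, which include Fos and Egr1 again, 5 were higher, 1 was lower and 6 did not pass, with a median of 0.49. Egr2, a zinc finger transcription factor, rose from 2.49 ± 0.0557 to 18.1 ± 3.93 CPM (log2 fold change 2.86, adjusted p = 3.81e-06). Junb rose from 88.5 ± 4.12 to 137 ± 19.3 CPM (log2 fold change 0.63, adjusted p = 0.00079), uncertain for its overlap with Prdx2. Without TGF-β1 replicate 3, 7 of the 12 were higher and 1 was lower.

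The 13 JNK and p38 components were 2 higher, 4 lower and 7 not passing, with a median of −0.02. Map3k5, the stress kinase ASK1, fell from 17.0 ± 0.761 to 6.24 ± 0.382 CPM (log2 fold change −1.45, adjusted p = 3.54e-06). The p38 genes Mapk12 and Mapk13 had log2 fold changes of −0.53 (adjusted p = 0.0123) and −0.41 (adjusted p = 0.0065). Without control 1, Mapk12 no longer passed (adjusted p = 0.104) and 2 of the 13 were lower. Leaving out control 1, control 2 or TGF-β1 replicate 3 left 1 of the 13 higher.

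**Figure D5:**
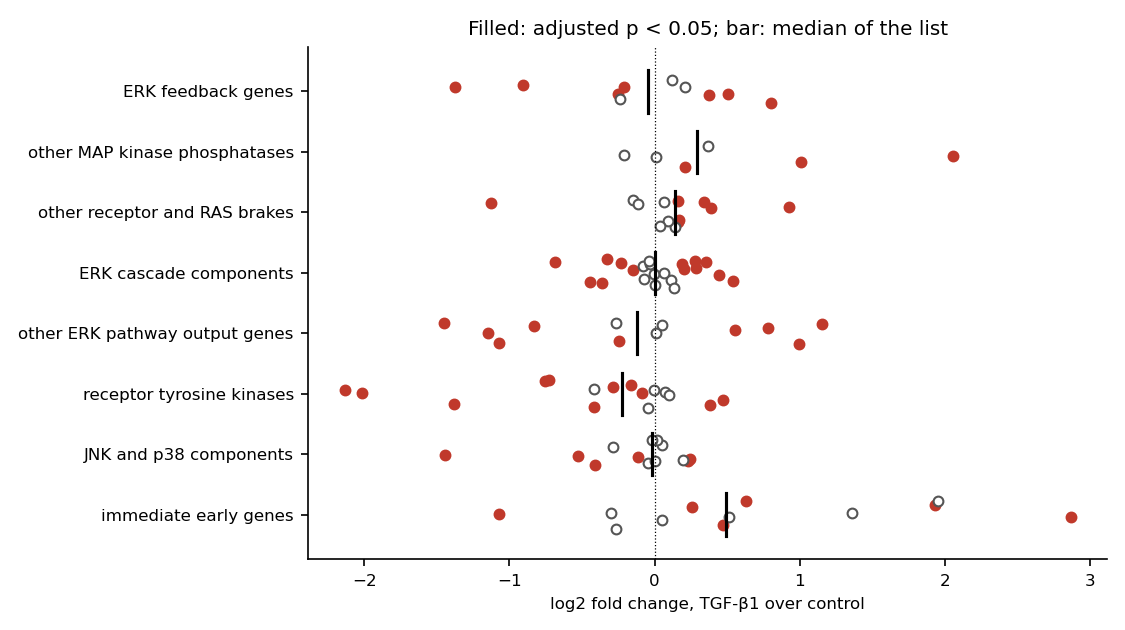
Log2 fold change of TGF-β1 over control (horizontal axis) for every tested gene of the feedback set and the 7 pathway lists, filled where adjusted p was under 0.05, with a bar at each list's median. Medians run from −0.23 for receptor tyrosine kinases to 0.49 for immediate early genes, and most lists hold calls on both sides of 0.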

How the data were processed

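Messenger RNA was sequenced from 2 vehicle and 3 TGF-β1 libraries, made strand-specific from polyA RNA per the labels' protocols. What the authors deposited is a matrix of raw counts, with 1 Ensembl gene ID to a line. The submitters' processing notes name STAR 2.5.3a, StringTie 1.3.1c and mm10; the sources used here name no counting tool, strand setting or annotation. Reads of overlapping genes may therefore be shared, and a gene is called uncertain where an exon overlaps a gene counted at over 0.1 of its level.

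Columns were assigned by sample title. IDs were matched to GENCODE M21 (GRCm38, the mm10 assembly), which gave symbols to all but 181 of 55335. Exon length is the union of a gene's exons there. Genes were filtered with filterByExpr, scaled with TMM and tested with edgeR's quasi-likelihood test on group, two-sided, with Benjamini-Hochberg adjustment. SE is the absolute log2 fold change over the square root of F, and 95% intervals use its t distribution. Ratios between replicates use TMM-scaled CPM, and those in the plot of library differences a pseudocount of 0.5 CPM. The fit was tested on simulated data with known changes in 50 genes per fold size among 16380 genes. That is a smaller share than was called in the real data. It recovered 21 of 50 at 1.25-fold, 31 at 1.5-fold, 42 at 2-fold and 46 at 4-fold, with 10 false calls. Small changes were thus often missed. Promoter sequences are from RefSeq (GRCm38.p6). Versions were R 4.3.3, edgeR 4.0.16, DESeq2 1.42.0, limma 3.58.1, Python 3.11.15 and matplotlib 3.10.9.

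Members and lists were chosen with earlier results of these data known. The text names all members and, per pathway list, the 3 largest changes among genes past the threshold whose mean reached 5 CPM; the text marks any other choice. Alternatives were other scalings, filters and tests, a replicate block and leaving out each library.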

Additional observations from a re-analysis of the deposited data

How the results depend on the processing

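None of the 14 alternatives turned the sign of any of the 10 feedback genes. These alternatives are not independent: the 1.5-fold test keeps the main log2 fold changes, and the replicate block in effect leaves out TGF-β1 replicate 3. Spry4 kept its call in all of them and Spred2 had a call in none. Tested for a change beyond 1.5-fold, 563 genes rose and 1223 fell; 0 feedback genes were higher and 1 lower. The pathway lists then had 0 higher and 0 lower among MAP kinase phosphatases, 1 and 1 among receptor and RAS brakes, 2 and 4 among ERK output genes and 2 and 1 among immediate early genes. ERK cascade components had 0 higher and 0 lower, receptor tyrosine kinases 0 higher and 4 lower, and JNK and p38 components 0 higher and 1 lower. With library totals, 2325 genes were higher, the share of higher calls went from 47.9% to 32.1% and the median log2 fold change to −0.10; brakes had 3 higher and 2 lower and JNK and p38 components 1 higher. The last count was also 1 without the low-count filter and with limma-voom.

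Leaving out 1 library each gave 2620 to 3623 genes higher and 2813 to 3881 lower. Among the feedback genes it gave 1 to 4 higher, lowest without either control, and 3 to 5 lower. It gave 0 to 4 MAP kinase phosphatases higher, and 1 to 2 JNK and p38 components higher and 2 to 3 lower. With 1 control left, its spread is taken to equal that among the treated libraries.

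Nothing in the labels says that replicate numbers pair libraries, and deviations from the group means of same-numbered libraries correlated at 0.0159 and 0.0161. With the replicate number as a block, TGF-β1 replicate 3 has no partner and drops out by construction; 4 feedback genes were higher and 5 lower, where 3538 of all genes were higher and 3727 lower, and 8 immediate early genes and 1 JNK and p38 component were higher. Counting error, the standard deviation expected from the square root of the count, was at most 5.72% per feedback gene and library. Its part in the differences between TGF-β1 replicate 3 and its group was not tested.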
